A study of Mus musculus with 15 samples.

Results

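The enzymes described here carry out the de novo synthesis of ceramide, from serine palmitoyltransferase to ceramide itself, together with the first enzyme that turns ceramide into glycosphingolipids. They were chosen by name as 10 of the 25292 genes of the count table, namely Sptlc1, Sptlc2, Sptssa, Kdsr, Cers2, Cers4, Cers5, Cers6, Degs1 and Ugcg. All 10 carried enough reads to be tested, among 16245 genes tested. RNA of C57/Bl6J mouse embryonic pancreas was sequenced in 15 libraries, in 5 groups of 3. The wt group was wild-type pancreas taken at 14.5 days post coitum (dpc), and the group labelled S1pr2 null was pancreas of the same stage from embryos with the S1pr2tm1Rlp allele of the sphingosine-1-phosphate (S1p) receptor S1pr2, an allele that is not confined to 1 cell type. The other 3 groups were explants of 14.5 dpc pancreas, which the study's methods describe as dorsal buds, kept for 2 days in air-liquid interface culture. They received standard medium (control), 15 μM of the S1pr2 antagonist JTE013 (JTE), or 15 μM JTE013 with 50 ng/ml of connective tissue growth factor (JTE + CTGF). Control cultures received solvent where the study judged it appropriate. The labels give no genotype for the explants. Each library could pool the organs of up to 3 embryos, or up to 3 explants, of 1 group, with epithelium and mesenchyme together.

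Sphingolipids are membrane lipids built on a long-chain base. Their synthesis starts in the endoplasmic reticulum, where serine palmitoyltransferase, a complex of Sptlc1, a catalytic partner such as Sptlc2 and a small subunit such as Sptssa, joins serine to palmitoyl-CoA. Kdsr reduces the product to dihydrosphingosine, ceramide synthases of the Cers family add a fatty acyl chain, and Degs1 puts in the double bond that makes dihydroceramide into ceramide. The Cers enzymes differ in the chain they prefer: Cers2 uses very long chains, Cers4 chains of intermediate to long length, and Cers5 and Cers6 mainly palmitoyl chains. Ceramide is then passed on to sphingomyelin or, by Ugcg, to glucosylceramide, or is broken down to sphingosine, from which the sphingosine kinases make S1p, the ligand of S1pr2. JTE013 is used as an S1pr2 antagonist, and the literature also describes effects of it on the activity of Degs1 and of the sphingosine kinases. Enzyme activity and lipids were not measured here, only transcripts.

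The libraries held between 11402804 and 13828737 reads assigned to genes. The genotype label was checked on S1pr2 itself. The wt libraries held 858, 796 and 812 S1pr2 reads and the libraries labelled S1pr2 null 1486, 1368 and 1609, which was 1.77-fold higher (adjusted p = 4.5e-07). S1pr2 counts thus went against the label, and every direction given for the libraries labelled S1pr2 null rests on that label. The allele is described by the study as a disruption by an inserted cassette, and which part of the S1pr2 transcript the reads covered cannot be seen in a count per gene. The study also assayed S1pr2 protein in this line by western blot, which was not analysed here. Among replicates, the libraries JTE 2 and JTE 3 lay farthest apart (chi-square per gene 21.8, against 2.26 for the closest pair). Several values of the members are therefore also given without JTE 3, while the other pathway genes are given with it only. Of the marker lists, none had a gene at 0 in all 3 libraries of any group. The wt libraries and those labelled S1pr2 null differed in cell type markers. Acinar markers summed to between 4654 and 8417 CPM (counts scaled to library size) in wt and to between 1484 and 1616 in the libraries labelled S1pr2 null, and endocrine markers to between 1655 and 1888 CPM and between 785 and 936, with 4 of 5 genes lower in each list.

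Levels were compared between genes per exon length, as RPKM, which divides the reads of a gene by its exon length and by the library size. In wt pancreas the most abundant transcript was Sptssa at 49.3 ± 2.01 RPKM (SD, n = 3), followed by Degs1 at 43.8 ± 0.743, Cers2 at 27.3 ± 0.658 and Sptlc1 at 19.8 ± 1.42, with no overlap between neighbours in this order. Cers6, Ugcg, Sptlc2 and Cers5 followed at 10.2, 9.90, 9.11 and 9.0 RPKM, and each neighbouring pair of these overlapped. Cers4, at 6.44 RPKM, and Kdsr, at 4.83, were lowest and did not overlap. The catalytic subunit Sptlc2 was therefore less abundant per length than its partner Sptlc1 in wt, as it was in each of the other 4 groups.

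The order changed at its top between groups. In control explants Degs1 (47.3 ± 2.48 RPKM) and Sptssa (47.0 ± 1.51) overlapped. In JTE explants Degs1, at 55.9 ± 1.88 RPKM, and Cers2, at 46.1 ± 1.15, both lay above Sptssa at 38.7 ± 1.30. In JTE + CTGF explants Degs1 stood at 70.7 ± 1.95 RPKM, and Sptssa (48.9 ± 1.47) and Cers2 (46.6 ± 2.03) overlapped behind it. Kdsr rose from the last place in wt to the seventh in JTE + CTGF explants, at 10.7 ± 0.580 RPKM.

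**Figure D1:**
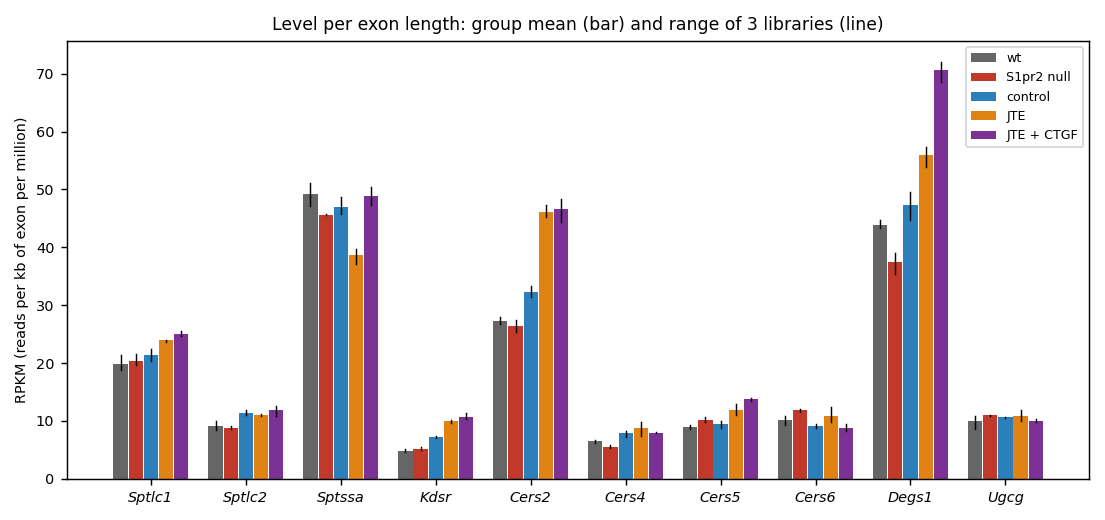
Bars give the mean RPKM (reads scaled by exon length and library size) of the 10 enzymes in the 5 groups, and lines the range of the 3 libraries of each group. Sptssa led in wt at 49.3 RPKM, and Degs1 led in JTE + CTGF at 70.7 RPKM.

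The relatives of these genes that other tissues use had few reads. Sptlc3, another catalytic subunit, had 0 or 1 read in each library, and Sptssb, the other small subunit, had between 1 and 13. Cers1, a synthase of brain and muscle, had at most 1 read per library, although 41.8% of its 50-base words occur elsewhere, Gdf1 included, so that reads can be missing from its count. Cers3, a synthase of skin and testis, had between 3 and 12. None of these 4 genes had enough reads to be tested. Degs2, which also hydroxylates its substrate, had between 6 and 28 reads per library, against at least 1174 for Degs1.

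RefSeq promoter sequence (GRCm38.p6) was found for 10 of 10 members and read over the 250 bases before the start site, on both strands. The 6-letter element CACGTG, the core of an E-box, was in the windows of Cers2, Cers6 and Degs1, 3 of 10 members, and in 6.02% of the 32851 promoters in the table. CCAAT was in 5 of 10 members (33.8% of all promoters) and GGGCGG in 8 of 10 (32.7%). TGATGNAA (3.45% of all promoters) and TGACGTCA (1.55%) were in none. No CACGTG match shared bases with a match to another of these motifs. The 3 windows with CACGTG are shown because Cers2 and Degs1 were among the members with the clearest changes below and Cers6 was not. For each, the 120 bases nearest to the start that lie outside the annotated exons of the gene are printed 5′ to 3′, with CACGTG in capitals.
Cers2 (chr3:95314964-95315083, plus strand): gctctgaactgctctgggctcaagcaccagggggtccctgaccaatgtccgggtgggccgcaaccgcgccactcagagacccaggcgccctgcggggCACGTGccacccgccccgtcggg
Cers6 (chr2:68861321-68861440, plus strand): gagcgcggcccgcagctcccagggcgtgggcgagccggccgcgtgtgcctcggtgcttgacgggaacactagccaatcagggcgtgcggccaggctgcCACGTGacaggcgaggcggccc
Degs1 (chr1:182282225-182282344, minus strand): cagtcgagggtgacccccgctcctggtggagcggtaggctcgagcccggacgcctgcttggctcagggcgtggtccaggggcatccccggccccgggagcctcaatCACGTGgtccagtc
In each stretch the element stood near the 3′ end, and the bases around it differed between the genes. The RefSeq start is not always the outermost annotated one. In the count table Cers2 starts at 95314792 and Degs1 at 182282804, so these 2 stretches lay inside the annotated gene. That of Cers6, which starts at 68861441, lay before it. The windows of Cers4, Cers5 and Ugcg, not printed, also lay inside the gene. For Degs1 the bases just after the RefSeq start were not found in its GENCODE transcripts. A match of letters says nothing about binding.

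JTE013 was compared with standard medium to ask what the antagonist does in explants. Of the 10 enzymes, 6 rose and 1 fell with JTE013, and 3 did not pass the test. Over all genes tested, 25.9% rose and 26.2% fell, so changes were common in this comparison. The median log2 fold change of the members was 0.20, against 0.00 over all genes. No change was large: the largest was 1.43-fold, and 0 of 10 members met the study's criterion of regulation (adjusted p of at most 0.1, normalised count above 100 and a fold change below 0.6 or above 1.6), which 8.25% of genes met.

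The largest rises were in Cers2, the very-long-chain ceramide synthase, and Kdsr, the reductase of the second step. Normalised read counts are given for the 3 libraries of a group in the order of their replicate numbers. Cers2 stood at 1446, 1466 and 1534 in control and at 2104, 2080 and 2181 in JTE, a log2 fold change of 0.52 ± 0.05 (SE, n = 3, adjusted p = 2.18e-07). Kdsr stood at 517, 489 and 499 in control and at 674, 698 and 712 in JTE, a log2 fold change of 0.47 ± 0.06 (adjusted p = 8.9e-06). For both genes every JTE library lay well above every control library. Some bases of Cers2 exons overlap genes of the opposite strand, among them Setdb1, and 2.05% of its 50-base words occur elsewhere.

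Degs1, the desaturase that the literature describes as inhibited by JTE013, had 1612, 1548 and 1452 normalised reads in control and 1749, 1865 and 1838 in JTE. This was a log2 fold change of 0.24 ± 0.05 (adjusted p = 0.000789), with no overlap between the groups. Its transcript thus rose by 1.18-fold. Cers5, a synthase of palmitoyl ceramides, went from 606, 614 and 543 to 695, 687 and 799, a log2 fold change of 0.31 ± 0.07 (adjusted p = 0.000898). The upper JTE value was that of JTE 3, and without this library the log2 fold change was 0.23 (adjusted p = 0.00645).

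Serine palmitoyltransferase, the entry step, did not move as a unit. Sptssa, its small activating subunit, was the single member that fell, from 832, 783 and 795 normalised reads in control to 679, 668 and 636 in JTE, with a log2 fold change of −0.28 ± 0.05 (adjusted p = 0.000183). All JTE values of Sptssa lay below all control values. Sptlc1, the shared subunit, stood at 734, 664 and 703 in control and at 782, 773 and 786 in JTE (log2 fold change 0.16 ± 0.06, adjusted p = 0.0341). That call was the weakest of the 7: without JTE 3 its adjusted p was 0.0721, and with DESeq2 it was 0.122. Sptlc2, the catalytic subunit, overlapped between groups, with a log2 fold change of −0.03 and a 95% interval from −0.16 to 0.10.

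The call for Cers6, the other palmitoyl synthase, depended on single libraries. Cers6 stood at 871, 945 and 938 in control and at 979, 1032 and 1234 in JTE, a log2 fold change of 0.24 ± 0.08 (adjusted p = 0.0210), and without JTE 3 this was 0.13 (adjusted p = 0.138). Without control 1 the adjusted p was 0.0804. Cers4 went the other way in JTE 3, with 780, 723 and 588 normalised reads in JTE against 572, 660 and 662 in control. Its log2 fold change of 0.14 ± 0.09 did not pass the test (adjusted p = 0.187) and became 0.25 (adjusted p = 0.00854) without JTE 3. Of its 50-base words 8.48% occur elsewhere in the transcriptome, more than for any other member. Ugcg, which makes glucosylceramide, differed by 0.04 on the log2 scale, with a 95% interval from −0.11 to 0.20.

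Cell type markers moved in the same comparison. Epithelial markers summed to between 2185 and 2526 CPM in control and between 1457 and 1850 in JTE, with 3 of 4 genes lower. Endocrine markers summed to between 4133 and 4691 CPM in control and between 605 and 884 in JTE (5 of 5 lower), endothelial markers to between 365 and 447 and between 273 and 307 (4 of 4 lower), and leukocyte markers to between 116 and 140 and between 52.2 and 63.4 (4 of 4 lower). Mesenchymal markers summed to between 9235 and 9632 CPM in control and to between 10353 and 12877 in JTE, with 2 of 5 genes higher. Duct markers summed to between 242 and 253 CPM in control and between 163 and 195 in JTE (2 of 4 lower). Acinar markers summed to between 42172 and 56696 CPM in control and between 42861 and 77647 in JTE (1 of 5 lower, 0 higher). Of 4 markers of epithelial progenitors 1 was higher and 2 were lower. In such bulk samples a change in the number of cells of a type and a change in RNA per cell cannot be told apart, and the part of these markers in the members' changes was not tested.

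**Figure D2:**
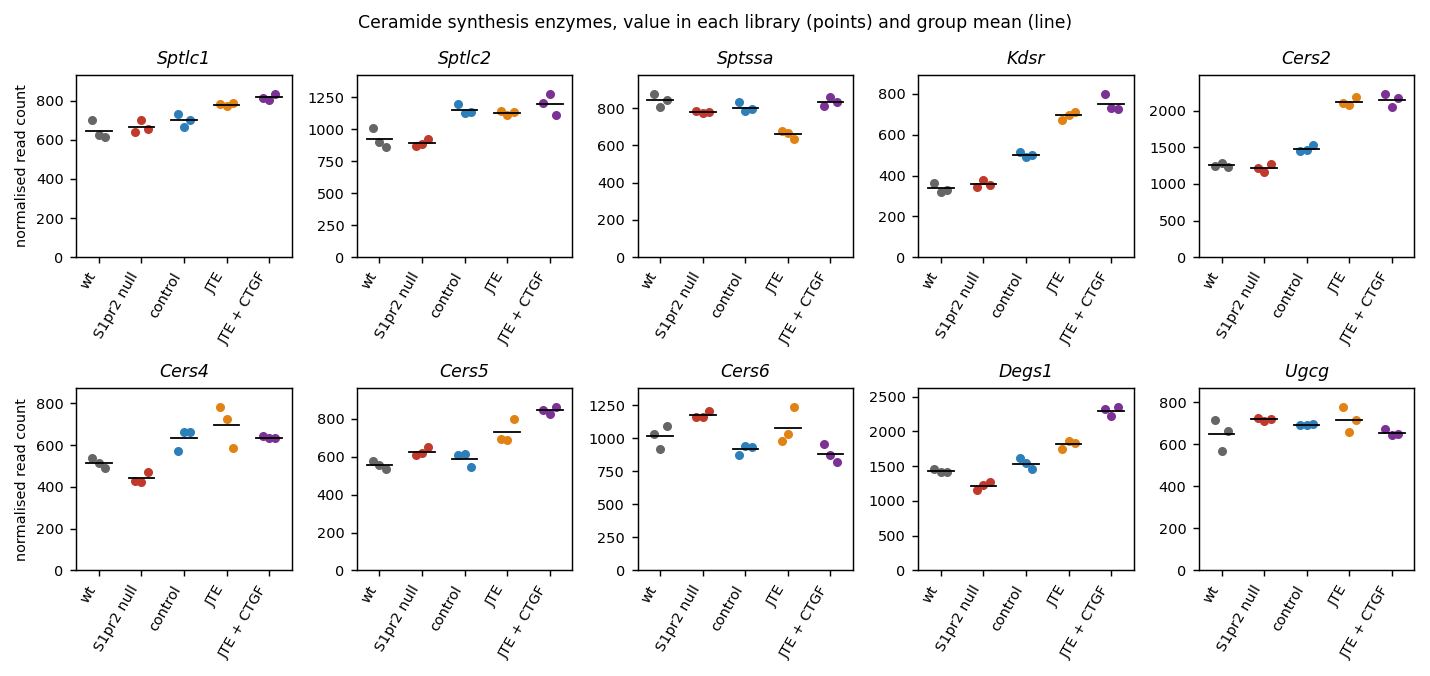
Each panel gives the normalised read count of 1 enzyme, with a point for each library, a line for the group mean and an axis from 0. Kdsr, Cers2 and Degs1 stepped up from control to JTE without overlap, Sptssa stepped down from control to JTE, and the JTE libraries of Cers4 and Cers6 were the most scattered.

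JTE + CTGF explants were compared with the same control libraries, so this comparison and the one above share their controls and are given side by side. Of the 10 enzymes 5 rose and 0 fell, against 28.1% and 33.0% of all genes, and the median log2 fold change was 0.14 against −0.03 over all genes. At an unadjusted p below 0.05 the count lower was also 0, as it was by DESeq2. DESeq2 called 9086 of the 16245 genes, 45.0% of these higher. Cers2 had 2224, 2042 and 2166 normalised reads in JTE + CTGF, which was 1.45-fold over control (log2 fold change 0.53 ± 0.05, adjusted p = 9.89e-08). Degs1 had 2324, 2226 and 2344, 1.5-fold over control (log2 fold change 0.58 ± 0.05, adjusted p = 6.04e-08), and Kdsr had 799, 731 and 727, also 1.5-fold over control (adjusted p = 5.38e-07). Cers5 had 846, 826 and 859, 1.43-fold over control (adjusted p = 3.69e-06), and Sptlc1 had 816, 804 and 834, 1.17-fold over control (adjusted p = 0.00349). In these 5 genes no library of JTE + CTGF overlapped with control. Cell type markers moved here too. Of the marker genes, 4 of 5 endocrine, 4 of 4 duct, 4 of 4 endothelial, 4 of 4 leukocyte and 3 of 4 epithelial ones were lower, and 3 of 5 acinar and 4 of 5 erythroid ones were higher. Endocrine markers summed to between 672 and 1148 CPM in JTE + CTGF, and the part of these markers in the members' changes was not tested. None of the 10 met the study's criterion, which 11.8% of genes met.

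The direct comparison of JTE + CTGF with JTE asks what the growth factor added to the antagonist. Here 3 members rose and 1 fell, against 13.6% and 16.8% of all genes, with a median of 0.08 against −0.00. Degs1 rose by a further 1.26-fold (log2 fold change 0.34 ± 0.05, adjusted p = 0.000102), from at most 1865 normalised reads in JTE to at least 2226. Sptssa, which JTE013 alone had lowered, stood at 811, 861 and 836 with CTGF, 1.27-fold above JTE (log2 fold change 0.34 ± 0.05, adjusted p = 0.000101). These values overlapped with the control libraries, and 2 of the 3 lay above all of them. The difference between JTE + CTGF and control was 0.06 on the log2 scale, with a 95% interval from −0.05 to 0.16. Cers2 differed little between the treatments, by 0.01 with a 95% interval from −0.09 to 0.12.

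The palmitoyl synthases went apart when CTGF was added. Cers5 was higher than in JTE, with a log2 fold change of 0.21 ± 0.07 (adjusted p = 0.0203). Cers6, at 954, 874 and 821, was lower, with a log2 fold change of −0.29 ± 0.08 (adjusted p = 0.0120). Both calls were fragile. That for Cers6 was lost without JTE 3 (−0.15, adjusted p = 0.123) or without JTE + CTGF 3 (−0.25, adjusted p = 0.0696), and that for Cers5 without JTE 1 (0.18, adjusted p = 0.0827), JTE 2 (0.17, adjusted p = 0.0930) or JTE + CTGF 3 (0.20, adjusted p = 0.0713). Acinar markers summed to between 80299 and 90764 CPM in JTE + CTGF and to between 42861 and 77647 in JTE, with 0 of 5 genes called by edgeR or DESeq2 and 2 higher at an unadjusted p below 0.05. Erythroid markers summed to between 76.9 and 161 CPM against 12.5 to 24.2, with 4 of 5 genes higher. The part of these markers in the members' differences was not tested. None of the 10 met the study's criterion, which 1.74% of genes met.

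The genotype comparison set the libraries labelled S1pr2 null against wt at 14.5 dpc. Degs1 was the single member called: 0 rose and 1 fell, against 12.6% and 13.3% of all genes, with a median of −0.01, as over all genes. At an unadjusted p below 0.05 edgeR had 2 members higher and 3 lower, a threshold for which the share of all genes is not given. DESeq2 called 0 members higher and 1 lower, and 3802 of the 16245 genes, 49.9% of these higher. Degs1 stood at 1453, 1411 and 1411 normalised reads in wt and at 1152, 1223 and 1267 in the libraries labelled S1pr2 null, with a log2 fold change of −0.23 ± 0.05 (adjusted p = 0.00348). All values of the libraries labelled S1pr2 null lay below all wt values, and the size of the change was 0.852-fold. None of the 10 met the study's criterion, which 3.00% of genes met.

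Differences in the other members did not pass the test. Cers4 had 536, 515 and 490 normalised reads in wt and 429, 422 and 469 in the libraries labelled S1pr2 null (log2 fold change −0.22 ± 0.09, adjusted p = 0.0775). Cers6 had 1036, 922 and 1090 in wt and 1164, 1159 and 1206 in the libraries labelled S1pr2 null (0.21 ± 0.08, adjusted p = 0.0619). Cers5 had 576, 557 and 532 in wt and 606, 620 and 653 (0.17 ± 0.07, adjusted p = 0.0631). The groups did not overlap in these 3 genes. All 3 passed the test when the 6 wt and S1pr2 null libraries alone entered the fit (adjusted p = 0.0209, 0.00731 and 0.0254), or when JTE 3 was left out. The share of all genes without overlap, or called in these fits, is not given, so this does not set the 3 genes apart. Sptssa had 876, 807 and 846 in wt and 783, 777 and 779 in the libraries labelled S1pr2 null, also without overlap and without a call (log2 fold change −0.11 ± 0.05, adjusted p = 0.104). Sptlc1, Sptlc2 and Ugcg overlapped between the groups, at 0.04, −0.05 and 0.15 on the log2 scale. For Cers2 the difference was −0.05, with a 95% interval from −0.15 to 0.06, and for Kdsr it was 0.09, with an interval from −0.05 to 0.23. Epithelial markers summed to between 1550 and 1728 CPM in wt and between 1098 and 1150 in the libraries labelled S1pr2 null (4 of 4 lower). The part of these markers, and of the acinar and endocrine markers given above, in the change of Degs1 was not tested.

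Control explants were compared with wt pancreas to describe the culture itself. Age, culture and the dorsal origin of the explants change together here and cannot be told apart. Of the members 4 rose and 0 fell, against 28.5% and 29.3% of all genes, and the median was 0.11 against −0.02. At an unadjusted p below 0.05 edgeR had 0 members lower, and DESeq2 also called 0. DESeq2 called 8515 of the 16245 genes, 51.9% of these higher. Kdsr rose by 1.48-fold (log2 fold change 0.57 ± 0.07, adjusted p = 1.37e-06), from 365, 320 and 328 normalised reads to 517, 489 and 499. Sptlc2 rose from 1013, 905 and 865 to 1197, 1130 and 1137 (0.32 ± 0.06, adjusted p = 0.000307). No control library of either gene overlapped with wt. Cers2 and Cers4 rose by 0.24 ± 0.05 (adjusted p = 0.000522) and 0.30 ± 0.09 (adjusted p = 0.00765) on the log2 scale. These last 2 calls were lost when libraries were scaled by total counts alone (0.097, adjusted p = 0.154, and 0.16, adjusted p = 0.123). That scaling moved the median of all genes to −0.17 and the share of higher genes among all called from 49.3% to 33.0%. Under it Cers6 (−0.29, adjusted p = 0.0120) and Sptssa (−0.21, adjusted p = 0.00158) were called lower. Acinar markers summed to between 42172 and 56696 CPM in control explants and to between 4654 and 8417 in wt. Erythroid markers summed to between 8.98 and 18.2 CPM against 864 to 965 in wt. Duct (242 to 253 against 116 to 129 CPM) and leukocyte markers (116 to 140 against 65.0 to 71.5 CPM) each had 3 of 4 genes higher. Of 4 epithelial markers 2 were higher and 0 lower, and of 4 endothelial ones 1 was higher and 2 were lower. The part of these markers in the members' changes, or in the effect of the scaling, was not tested. None of the 10 met the study's criterion, which 12.1% of genes met.

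Kdsr and Cers2 therefore stepped up both from wt to control and from control to JTE, while Sptlc2 moved in culture and was not called with JTE013. The control libraries enter both of these comparisons.

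**Figure D3:**
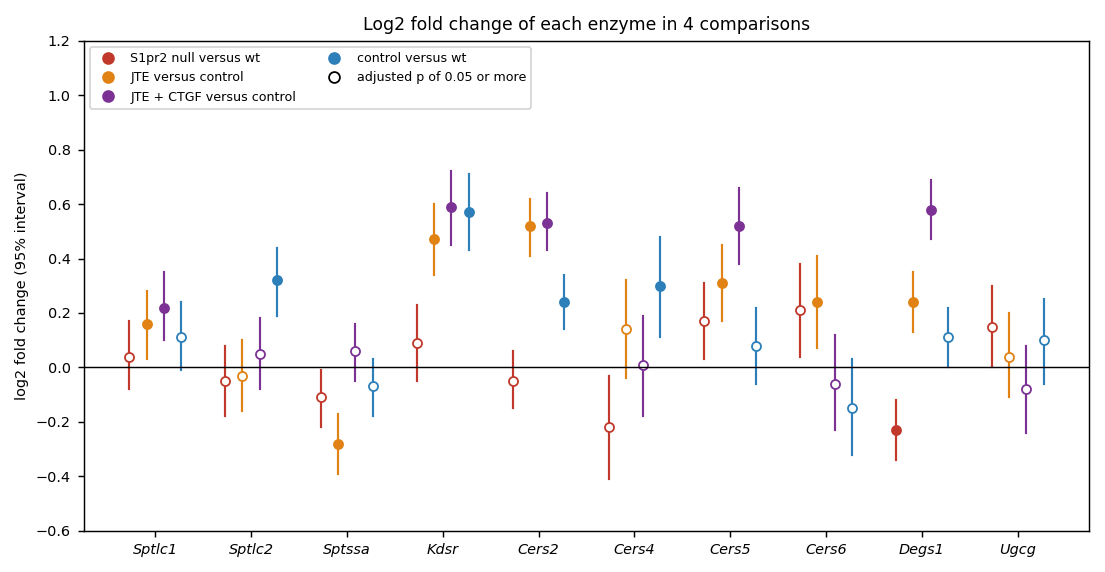
Points give the log2 fold change of each enzyme in 4 comparisons and lines its 95% interval; filled points had an adjusted p below 0.05. In JTE versus control Cers2 (0.52) and Kdsr (0.47) lay highest and Sptssa (−0.28) lowest, and Degs1 lay at −0.23 in the libraries labelled S1pr2 null and at 0.58 with JTE013 and CTGF.

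Whether the response to the antagonist differed from the genotype difference was tested directly, as the JTE response minus the S1pr2 null response in the same fit. The difference was called higher for 4 members and lower for 0, against 21.5% of all genes in the higher and 21.5% in the lower direction, and the median was 0.12 against 0.00. At an unadjusted p below 0.05 edgeR had 1 member lower, Sptssa, and DESeq2 called 0. DESeq2 called 6195 of the 16245 genes, 46.4% of these higher. The difference was largest for Cers2, at 0.57 ± 0.07 (adjusted p = 7.87e-06), and for Degs1, at 0.47 ± 0.07 (adjusted p = 7.09e-05). Degs1 was the one member that was called in both comparisons and in opposite directions. For Kdsr the difference was 0.38 ± 0.09 (adjusted p = 0.00312) and for Cers4 0.36 ± 0.12 (adjusted p = 0.0263). The call of Cers4 held in 9 of 15 fits that each left out a library, and was lost without wt 1, S1pr2 null 1, S1pr2 null 2, control 1, JTE 1 or JTE 2, with adjusted p between 0.0556 and 0.0767. Without JTE 3 the difference for Cers4 was 0.48 (adjusted p = 0.000932). The contrast compares cultured explants with fresh tissue, so drug against genotype and culture against fresh tissue cannot be told apart.

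The make-up of the ceramide synthase family was described by the share of each gene in the reads per kilobase of Cers1 to Cers6 within a library, which does not depend on depth or scaling. Cers2 had the largest share in every group, at 51.5% ± 1.35 (SD, n = 3) in wt, 48.8% ± 0.545 in the libraries labelled S1pr2 null, 54.5% ± 1.17 in control, 59.4% ± 0.322 in JTE and 60.3% ± 0.735 in JTE + CTGF. The 3 JTE values were 59.7%, 59.6% and 59.1% and the 3 control values 54.7%, 53.3% and 55.6%. JTE was thus 4.90 percentage points above control with no overlap (exact permutation test, two-sided, p = 0.1). With 3 libraries against 3 this p is the smallest the test can give, so none of the 20 share tests could reach 0.05, and the adjusted value for this one was 0.154.

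The share of Cers6 was 19.2% ± 1.67 in wt, 21.8% ± 0.330 in the libraries labelled S1pr2 null, 15.6% ± 0.342 in control, 13.9% ± 1.34 in JTE and 11.4% ± 0.705 in JTE + CTGF. Shares add up to a fixed total, so a higher share of Cers2 lowers the others: Cers6 itself had more normalised reads in JTE than in control, as given above, while its mean share was lower. Control and JTE overlapped in the share (difference −1.62 points, exact permutation p = 0.200), and JTE + CTGF lay below both without overlap (exact permutation p = 0.1 for each). In the group means Cers5 ranged from 15.2% to 18.8% and Cers4 from 10.2% to 13.4%. Both overlapped between JTE and control. Without overlap, Cers4 differed by −3.07 points in JTE + CTGF versus control and by −1.93 in S1pr2 null versus wt. Cers5 differed without overlap by 2.53 points in JTE + CTGF versus JTE and by 1.82 in S1pr2 null versus wt (exact permutation p = 0.1 for each of the 4). Cers1 and Cers3 together took less than 1% in every library.

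**Figure D4:**
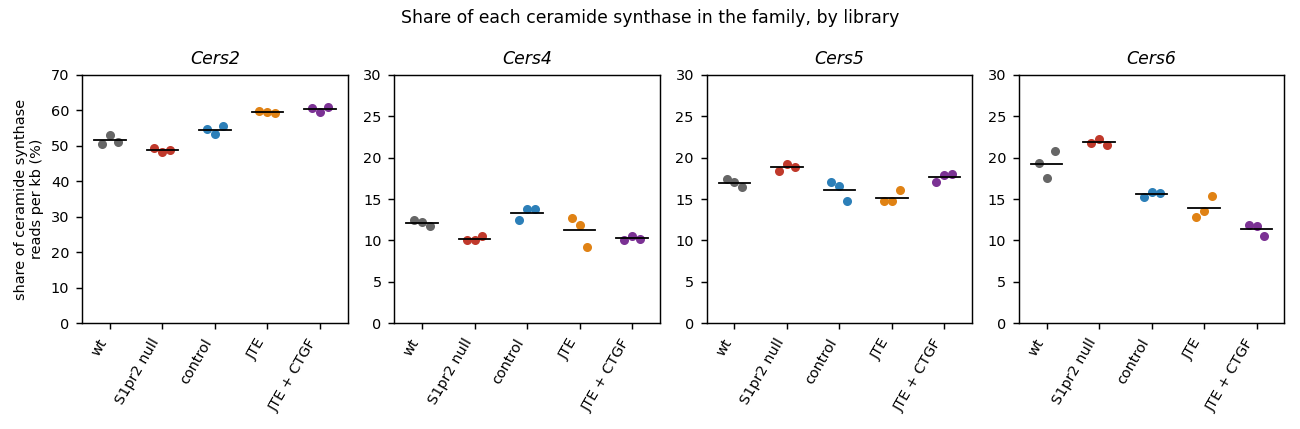
Each point is the share of 1 ceramide synthase in the reads per kilobase of Cers1 to Cers6 in 1 library, in percent, and lines are group means; axes start at 0 and the Cers2 panel has its own range. The share of Cers2 was 54.5% in control and 59.4% in JTE, and that of Cers6 15.6% and 13.9%, although the normalised reads of Cers6 were higher in JTE.

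The rest of the pathway was followed in 7 lists with 78 genes, of which 72 could be tested. With JTE013, 31 rose and 16 fell, against 25.9% and 26.2% of all genes, with a median log2 fold change of 0.14. The lists differed in size and direction and are given in the order of the pathway.

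Serine, the amino acid that enters the pathway, is made by Phgdh, Psat1 and Psph and taken up by carriers such as Slc1a4 and Slc1a5. All 7 genes of this list changed with JTE013, 6 higher and 1 lower (Shmt1, −0.35), with a median log2 fold change of 0.82. Over all genes 25.9% rose and 26.2% fell. Slc1a4 went from 388, 478 and 372 normalised reads in control to 1622, 1569 and 1712 in JTE, a log2 fold change of 1.99 ± 0.10 (adjusted p = 1.77e-10), the largest change in any of the lists. Slc1a5, Psph and Psat1 rose by 1.06 ± 0.14, 1.03 ± 0.09 and 0.82 ± 0.07 on the log2 scale. Of the words of Phgdh 47.8% occur elsewhere, so its reads are uncertain. In the libraries labelled S1pr2 null 0 of the 7 genes rose and 6 fell by edgeR, against 12.6% and 13.3% of all genes, with a median of −0.42 and a value above 0 in none, and Slc1a5 fell most, by 1.99 on the log2 scale (adjusted p = 3.37e-07). The difference between the responses was called higher for 6 of 7, against 21.5% of all genes, with a median of 1.57. With CTGF added, the median over control was 0.82 as well, and 0 of 7 genes were called against JTE by edgeR (13.6% of all genes higher and 16.8% lower), with Phgdh (0.18, adjusted p = 0.0561) and Psat1 (−0.15, adjusted p = 0.109) at an unadjusted p below 0.05. DESeq2 called 1 of the 7 higher, and 4426 of the 16245 genes, 46.1% of these higher.

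Fatty acyl-CoA, the other substrate, comes from synthesis, activation and elongation. Of 20 tested genes in this list 8 rose and 4 fell, against 25.9% and 26.2% of all genes, with a median of −0.09. Elovl4, an elongase of very long chains, rose by 1.47 ± 0.23 (adjusted p = 5.4e-05) from a low level, between 30.8 and 44.8 normalised reads in control and between 67.4 and 132 in JTE. Acsl1, which activates long-chain fatty acids, rose by 0.83 ± 0.12 (adjusted p = 2.51e-05). Scd1, the stearoyl-CoA desaturase, fell from 1762, 1974 and 1272 to 904, 907 and 492 (−1.13 ± 0.21, adjusted p = 0.000258). Hacd4, a dehydratase of the elongation cycle whose span overlaps Focad, fell by 0.57 ± 0.14.

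Among regulators of serine palmitoyltransferase 1 of 5 tested genes rose and 1 fell, against 25.9% and 26.2% of all genes. Ormdl3, an inhibitory subunit of the complex, rose by 0.33 ± 0.05 (adjusted p = 4.87e-05), and Rtn4, an endoplasmic reticulum protein that binds the complex, fell by 0.32 ± 0.06 (adjusted p = 0.000105), although 17% of its 50-base words occur elsewhere. Of the other ceramide synthases and desaturases 3 of 5 could be tested, and against 26.2% of all genes 2 of the 3 fell. These were Fa2h, which hydroxylates the acyl chain (−0.89 ± 0.13, adjusted p = 3.33e-05), and Cyb5r3, the reductase that supplies electrons to the desaturases (−0.54 ± 0.08, adjusted p = 1.42e-05).

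Downstream of ceramide, 4 genes of complex sphingolipid synthesis rose and 5 fell among 15, with a median of −0.10. Over all genes 25.9% rose and 26.2% fell, so these counts were close to those of all genes. Samd8, which makes ceramide phosphoethanolamine, rose from 366, 350 and 385 to 716, 694 and 878 (1.06 ± 0.10, adjusted p = 1.31e-07), and Sgms2, a sphingomyelin synthase, by 0.40 ± 0.09 (adjusted p = 0.00126). Gal3st1, the sulfatide sulfotransferase, and B4galnt1, a ganglioside synthase that shares 19.4% of its words with other loci, fell by 0.61 ± 0.13 and 0.53 ± 0.14. Of 17 tested genes of ceramide release and breakdown 9 rose, 2 fell and 6 were not called, with a median of 0.30. Neu1, the lysosomal sialidase, rose most, from 587, 685 and 825 to 1426, 1255 and 1592 (1.03 ± 0.10, adjusted p = 3.12e-07). Asah2, a neutral ceramidase, Galc, the galactosylceramidase, and Smpd1, the acid sphingomyelinase, rose by 0.65 ± 0.14, 0.63 ± 0.07 and 0.62 ± 0.06.

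In the branch from sphingosine to S1p, 3 of 5 genes rose and 1 fell, against 25.9% and 26.2% of all genes. The sphingosine kinases differed in their values. Sphk1 had 754, 681 and 746 normalised reads in control and 748, 794 and 642 in JTE (0.00 ± 0.09, adjusted p = 0.991, 95% interval from −0.18 to 0.19). Sphk2 had 884, 854 and 874 in control and 1237, 1251 and 1034 in JTE (0.43 ± 0.06, adjusted p = 3.13e-05), but 18.3% of its words occur elsewhere and its exons overlap those of neighbouring genes. The S1p phosphatase Sgpp1 rose by 0.43 ± 0.06 and its relative Sgpp2 fell by 0.38 ± 0.09, and the S1p lyase Sgpl1 rose by 0.36 ± 0.07.

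**Figure D5:**
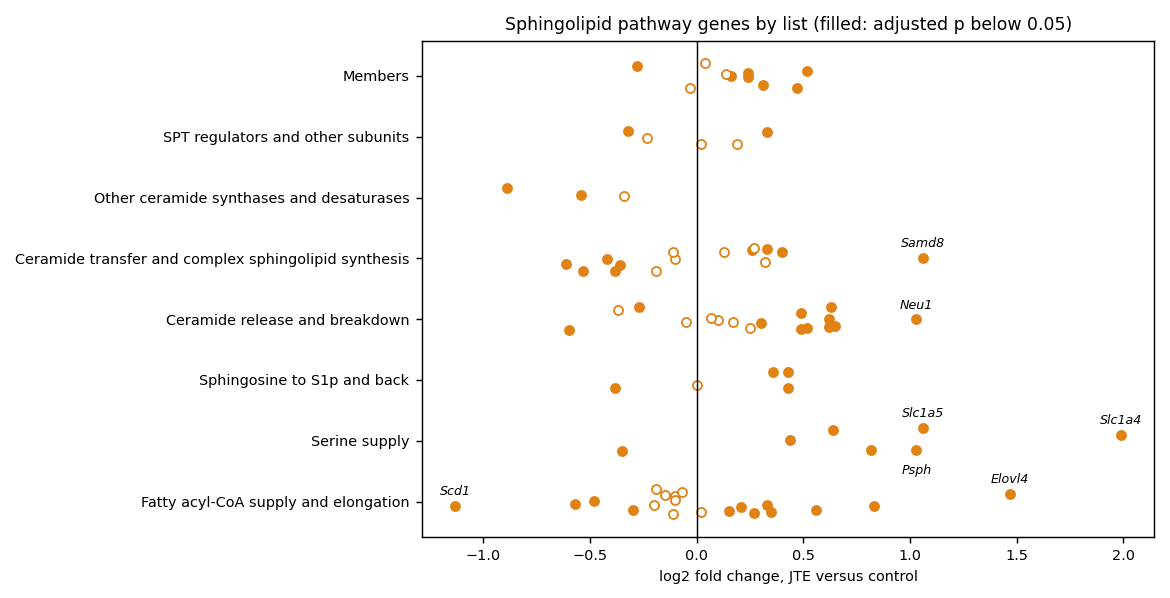
Each point is a gene of the named list, placed by its log2 fold change in JTE versus control and spread vertically within its list for legibility, and filled points had an adjusted p below 0.05. Genes beyond about 1 on either side are named. Serine supply lay farthest to the right, up to 1.99 for Slc1a4, while the 10 enzymes lay between −0.28 and 0.52.

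The genes whose log2 CPM followed Degs1 most closely over the 15 libraries, among 14518 protein-coding genes, were Rchy1 (Pearson r = 0.992), Ctdnep1 (0.988), Atp6v1h (0.982), Stx8 (0.980) and Derl1 (0.980). The libraries share the 5 groups, so these coefficients mostly rank genes by their group means.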

How the data were processed

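Poly(A) RNA of 15 strand-specific libraries, 3 per group, was analysed, with groups and replicate numbers taken from the sample titles. The authors aligned single-end reads to mm10 with GSNAP and Ensembl splice sites. They deposited raw read counts per Ensembl gene of uniquely aligned reads, counted with featureCounts 1.4.6 without normalisation. Use of strand in the counting was not given in the sources used here, so overlapping genes can share reads. Symbols came from GENCODE M21 for 24750 of 25292 IDs.

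The test was edgeR's quasi-likelihood F-test (edgeR 4.0.16, R 4.3.3) on a single fit of the 15 libraries, with a coefficient for each group, TMM scaling, genes kept by filterByExpr and no covariates. Benjamini-Hochberg adjustment ran over 16245 genes, and a call is an adjusted p below 0.05. No share of all genes is given for counts at an unadjusted p below 0.05 or for groups without overlap. Intervals are at 95%. Counts were normalised by TMM-scaled library sizes, expressed relative to their mean, and RPKM uses the exon length of the count table. The biological coefficient of variation was 7.30%. Depth was 11402804 to 13828737 reads per library. The JTE + CTGF libraries, at 11658845, 11602826 and 11402804 reads, were the shallowest, below every other library (12015589 or more). The study describes its replicates as independent samples. Ceramide synthase shares were compared by exact permutation tests. Fits with DESeq2 1.42.0, RLE factors, no low-count filter, the compared libraries alone, a replicate block and each library left out were made as alternatives, and total counts alone were added after the data were seen.

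The members and lists were chosen with earlier results of these data known. Named were all 10 members, Sphk1 and Sphk2, for each list the 4 genes with the largest absolute log2 fold change in JTE versus control that were called, with over 100 normalised reads on average in one of the groups and no overlap between groups, and for Degs1 the 5 genes most correlated with it. Shmt1, Phgdh, Degs2, Sptlc3, Sptssb, Cers1 and Cers3 were named after their values were seen.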

Additional observations from a re-analysis of the deposited data

Results flagged for a closer look

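For 4 of the 10 enzymes the JTE response and the difference between the libraries labelled S1pr2 null and wt were not alike by the test of the difference itself. Over all genes the same test called 21.5% higher and 21.5% lower, so such differences were common. The JTE response minus the S1pr2 null response was 0.57 for Cers2, 0.47 for Degs1, 0.38 for Kdsr and 0.36 for Cers4 on the log2 scale (edgeR, adjusted p = 7.87e-06, 7.09e-05, 0.00312 and 0.0263). The call of Cers4 held in 9 of 15 fits that each left out a library, and its JTE and control libraries overlapped. All 3 JTE libraries lay above all 3 control libraries for Cers2, Degs1 and Kdsr, and all 3 libraries labelled S1pr2 null lay below all 3 wt libraries for Degs1 and Cers4. The libraries labelled S1pr2 null had more S1pr2 reads than wt, and the contrast sets cultured explants against fresh tissue.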

How the results depend on the processing

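The 60 tests of single members were repeated under each alternative. With the replicate number as a block, all 60 kept their direction and their side of the threshold, and the counts of members called stayed at 1, 7, 5, 4, 4 and 4 in the order null, JTE, JTE + CTGF versus control, JTE + CTGF versus JTE, control versus wt and the difference of responses. Deviations from the group mean in libraries of the same number correlated with r between −0.13 and 0.29 over the comparisons. The largest values, 0.18 and 0.29, were those of replicates 2 and 3 in JTE versus control. With 3 libraries per group these coefficients cannot decide whether the numbers pair the samples. The count called for the libraries labelled S1pr2 null moved from 1 to 2 with no filter and to 4 with the compared libraries alone, and that for JTE + CTGF versus JTE from 4 to 2 with the compared libraries alone. Leaving out 1 library gave 1 to 4 calls for S1pr2 null versus wt (2 without wt 1, wt 3 or JTE 1 and 4 without JTE 3), 6 to 7 for JTE versus control, 5 to 5 for JTE + CTGF versus control, 2 to 4 for JTE + CTGF versus JTE (2 without JTE + CTGF 3), 4 to 5 for control versus wt and 3 to 4 for the difference of responses. The share of all genes called under these fits is not given, so the moves cannot be set against changes over all genes. No member met the study's criterion under any alternative.

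Sptlc1 in JTE versus control lost its call with DESeq2, RLE factors (adjusted p = 0.0650), no filter (0.0560), the compared libraries alone (0.0610), total counts (0.0724) and without control 2 (0.145), control 3 (0.0644) or any 1 JTE library (0.0573 to 0.0721). Cers6 in the same comparison lost it with the compared libraries alone (0.0596) and total counts (0.0507). Values near 0 turned their sign: with total counts alone Sptlc1 −0.029, Cers5 −0.063, Degs1 −0.035 and Ugcg −0.047 in control versus wt, Cers4 −0.036 in JTE + CTGF versus control and Cers2 −0.016 in JTE + CTGF versus JTE, and Sptlc2 in the difference of responses with DESeq2 (−0.00044) and RLE factors (−0.00067). None of these 8 had been called. With 1 library left out, the log2 fold change crossed 0 for Sptlc2 in S1pr2 null versus wt (−0.10 to 0.015), Ugcg in JTE versus control (−0.015 to 0.10), Cers4 in JTE + CTGF versus control (−0.057 to 0.044), Cers2 in JTE + CTGF versus JTE (−0.013 to 0.071), and Sptlc2 (−0.043 to 0.073) and Cers6 (−0.076 to 0.096) in the difference of responses. Total counts alone also moved the share of higher genes among the calls of JTE + CTGF versus JTE from 44.6% to 36.0%. The cause of these changes was not tested. Counting error and 3 libraries per group limit the precision. Standard errors were largest for Cers4 (0.09 on the log2 scale between groups), although Kdsr had the fewest reads (334 to 765 per library).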
